A study of Mus musculus with 12 samples.

Results

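Myeloid C-type lectins are receptors of monocytes, macrophages, neutrophils and dendritic cells that bind sugars or other ligands through a C-type lectin domain. The 6 genes of this kind described here, Clec7a, Clec4n, Clec5a, Clec4a2, Cd207 and Cd209e, were taken by name from the 770 genes of an nCounter mouse immune panel, of which 750 were tested and 20 serve as references. The panel was measured in bulk RNA of 12 A20 tumors. A20 is a B-cell lymphoma line of Balb/c mice, and each tumor was grown under the skin of a female Balb/c mouse from cells of this 1 line. About 7 days after implantation, mice received 3 injections into the tumor, 1 every other day, of PBS (n = 4), of GLA-SE (n = 4) or of SE (n = 4), and the tumors were taken 2 h after the last one. GLA-SE, called G100 in the study, is 10 ug of glucopyranosyl lipid A, a synthetic agonist of Toll-like receptor 4, in 50 ul of a 2% oil-in-water stable emulsion, and SE is the emulsion without the agonist. No gene was deleted in these tumors, and the age of the mice was not given in the labels.

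These receptors fall into activating, inhibitory and endocytic kinds. The activating ones signal through the kinase Syk, either by a motif of their own or through an adaptor such as FcRgamma or DAP12, and Card9 and Bcl10 carry the signal on to NF-kB and to cytokine genes. The inhibitory ones carry a motif that recruits phosphatases, and the endocytic ones take up glycosylated cargo for presentation. Among the genes described, Clec7a encodes Dectin-1, the beta-glucan receptor. Clec4n encodes Dectin-2, which binds mannans and pairs with FcRgamma, and Clec5a encodes MDL-1, which pairs with DAP12. Clec4a2 encodes DCIR, an inhibitory receptor. Cd207 encodes langerin, the endocytic receptor of Langerhans cells and of some dendritic cells, and Cd209e is 1 of the mouse homologs of human DC-SIGN.

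In RefSeq's mouse annotation, 5 of the 6 genes lie on chromosome 6 and Cd209e lies on chromosome 8. Clec4a2 and Clec4n are close neighbours there, with 1 protein-coding gene, Clec4b2, between them. The 250 bases before the start were read for the 5 genes that the RefSeq promoter table (GRCm38.p6) holds, all but Clec4n. Only 1 promoter per gene was read, although the table has 2 entries for Clec7a. Both strands were searched for GAGGAA, the core of the box bound by the myeloid factor PU.1, for the AP-1 site TGANTCA and for the core of the interferon-stimulated response element, TTTC repeated after a gap of 2 bases. The 3 promoters with a match are printed 5′ to 3′ on the strand of the gene, with the matches in capitals, because they show where these motifs lie in genes that were compared across the same tumors.
Clec7a, chr6:129472780-129473029, minus strand: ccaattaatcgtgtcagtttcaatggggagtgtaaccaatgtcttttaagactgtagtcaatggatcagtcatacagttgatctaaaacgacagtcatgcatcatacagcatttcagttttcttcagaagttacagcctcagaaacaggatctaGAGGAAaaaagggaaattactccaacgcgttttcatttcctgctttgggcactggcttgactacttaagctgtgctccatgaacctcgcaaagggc
Clec5a, chr6:40585806-40586055, minus strand: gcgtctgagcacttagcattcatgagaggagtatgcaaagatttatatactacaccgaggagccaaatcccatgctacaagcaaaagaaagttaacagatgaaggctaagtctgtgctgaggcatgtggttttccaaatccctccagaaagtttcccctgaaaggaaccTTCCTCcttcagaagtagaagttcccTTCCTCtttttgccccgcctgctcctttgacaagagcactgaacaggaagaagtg
Cd207, chr6:83677858-83678107, minus strand: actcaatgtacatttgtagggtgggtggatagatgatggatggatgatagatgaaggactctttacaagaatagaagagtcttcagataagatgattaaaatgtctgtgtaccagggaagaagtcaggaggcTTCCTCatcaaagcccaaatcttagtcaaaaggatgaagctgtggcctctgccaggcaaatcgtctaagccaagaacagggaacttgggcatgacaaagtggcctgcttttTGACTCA

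GAGGAA began 96 bases before the start of Clec7a. On the opposite strand, where it reads TTCCTC, it began 81 and 55 bases before the start of Clec5a and 118 bases before that of Cd207. The Cd207 promoter also held the AP-1 site 7 bases before the start. The Clec4a2 and Cd209e promoters held none of the 3 motifs. Among all 27025 promoters of the table, 23.1% held GAGGAA, 6.87% the AP-1 site and 3.04% the interferon element, which none of the 5 promoters held. These matches describe letters in a window and were not tested against the counts.

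Total counts ranged from 812522 to 1086462 in PBS tumors, from 810260 to 1268512 in SE tumors and from 1186487 to 1612415 in GLA-SE tumors. The geometric mean of the 16 reference genes used for scaling was 1693 to 1932 in GLA-SE and 1972 to 2558 in PBS tumors. It was 2806, 1828, 1501 and 927 in SE tumors 1 to 4. The 8 B-cell markers were present throughout, with a summed normalized count of 14090 to 23283. SE tumors 3 and 4 stood apart from the other SE tumors. Summed counts of 9 monocyte and macrophage markers were 24373, 30887, 72304 and 104646 in SE tumors 1 to 4, 29024 to 37157 in PBS tumors and 83866 to 124678 in GLA-SE tumors. The 6 endothelial and fibroblast markers summed to 3290, 4110, 27615 and 118115 in SE tumors 1 to 4, and the epithelial markers Epcam and Cdh1 to 216, 220, 1838 and 5731. Fits without SE tumors 3 and 4 were therefore added after the values were seen, and the members' values from them stand beside those of all 4 tumors. GLA-SE tumor 3 had a summed level of 9 neutrophil markers of 11474, against 1262 to 2949 in the other GLA-SE tumors.

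GLA-SE tumors had more of all 4 signalling receptors, Clec7a, Clec4n, Clec5a and Clec4a2, than PBS tumors, by 1.93-fold to 3.10-fold, and more Cd209e. In all, 5 of the 6 genes rose against PBS (adjusted p under 0.05, edgeR), all but Cd207. This count has to be read against a panel in which 68.8% of the 750 tested genes differed between GLA-SE and PBS, 513 higher (68.4%) and 3 lower (0.4%). Over the 6 genes the log2 fold changes had a median of 1.20, against 0.90 over the 750. For the same 5 genes every GLA-SE tumor was higher than every PBS tumor, as was so for 63.7% of the panel. In bulk tumor RNA, a change in the number of cells of a type and a change in RNA per cell cannot be told apart.

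Values for single genes are normalized counts in replicates 1 to 4, that is, counts scaled to the reference genes. Clec7a was 1393, 564, 770 and 901 in PBS tumors and 2068, 3036, 3079 and 1712 in GLA-SE tumors. The groups did not overlap, and the lowest GLA-SE tumor exceeded the highest PBS tumor. The mean went from 907 ± 352 (SD, n = 4) to 2474 ± 690 (SD, n = 4), a log2 fold change of 1.45 (s.e., the standard error, 0.30, adjusted p = 0.00343). In SE tumors Clec7a was 1036, 1197, 2079 and 2219, so tumors 1 and 2 lay among the PBS tumors and tumors 3 and 4 among the GLA-SE tumors. Neither SE against PBS (log2 fold change 0.85, s.e. 0.35, adjusted p = 0.256) nor GLA-SE against SE (0.60, s.e. 0.32, adjusted p = 0.374) passed the test for this gene. Without SE tumors 3 and 4, the log2 fold change of Clec7a was 1.15 in GLA-SE against SE (adjusted p = 0.0179) and 0.30 in SE against PBS (adjusted p = 0.576).

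Clec4n, the Dectin-2 gene, separated GLA-SE tumors from all others. It was 1324, 894, 1002 and 1115 in PBS tumors, 832, 757, 1175 and 833 in SE tumors and 2321, 3400, 3050 and 3075 in GLA-SE tumors. SE tumor 3 lay within the PBS range and the other SE tumors just below it, and every GLA-SE tumor was higher than every other tumor. Of the panel, 63.7% was higher in every GLA-SE than in every PBS tumor, and 14.7% than in every SE tumor. Against PBS the log2 fold change of Clec4n was 1.45 (s.e. 0.16, adjusted p = 0.000238), from a mean of 1084 ± 184 to 2961 ± 456 (SD, n = 4 each). Against SE it was 1.72 (s.e. 0.21, adjusted p = 0.00777), or 3.29-fold over the SE mean of 899 ± 187. SE against PBS gave -0.27 (s.e. 0.19, adjusted p = 0.356), and -0.45 without SE tumors 3 and 4 (adjusted p = 0.166).

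Clec4n was the only 1 of the 6 genes that passed the test for GLA-SE against SE, a comparison in which 2.13% of the panel did, 16 genes and all higher. By log2 fold change it ranked 38 of 750. It kept passing with each of the 8 tumors left out in turn (log2 fold change 1.65 to 1.88, largest adjusted p = 0.0452), and without SE tumors 3 and 4 it gave 1.90 (adjusted p = 0.00159). It did not pass where the panel's own median (0.80, adjusted p = 0.202) or the TMM method (1.24, adjusted p = 0.120) set the scale, or with replicate number as a block (1.73, adjusted p = 0.089). The panel count itself rested on single tumors, with 105 genes called without SE tumor 4, 9 without SE tumor 1, 7 without SE tumor 2, and 4 without SE tumor 3, GLA-SE tumor 2 or GLA-SE tumor 4.

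Clec5a, the MDL-1 gene, was the member with the largest rise against PBS. It was 177, 141, 107 and 157 in PBS tumors, 138, 124, 228 and 218 in SE tumors and 345, 443, 481 and 531 in GLA-SE tumors. Again no GLA-SE tumor overlapped any other. The log2 fold change against PBS was 1.63 (s.e. 0.21, adjusted p = 0.000383), from 145 ± 29.8 to 450.2 ± 78.5 (SD, n = 4 each). Against SE it was 1.35 (s.e. 0.30), which missed the threshold (adjusted p = 0.0737), although the groups did not overlap (exact two-sided permutation p = 0.0286, the smallest that 70 assignments can give). Groups did not overlap, with GLA-SE higher, for 14.7% of the panel in that comparison. Without SE tumor 4 the value was 1.47 (adjusted p = 0.0249), and without SE tumors 3 and 4 it was 1.78 (adjusted p = 0.00272). SE against PBS gave 0.28 (s.e. 0.31, adjusted p = 0.551), and -0.15 without those tumors (adjusted p = 0.736).

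Clec4a2, the inhibitory member, rose less. It was 143, 165, 102 and 143 in PBS tumors and 291, 278, 202 and 297 in GLA-SE tumors, with no overlap. The mean went from 138 ± 26.3 to 267 ± 44.0 (SD, n = 4 each), a log2 fold change of 0.95 (s.e. 0.21, adjusted p = 0.00413) that lay near the panel median of 0.90. The SE tumors were split, at 87.3 and 74.6 in tumors 1 and 2 and at 299 and 367 in tumors 3 and 4. The first pair lay below every PBS tumor and the second pair above every GLA-SE tumor. SE against PBS (0.58, s.e. 0.55, adjusted p = 0.484) and GLA-SE against SE (0.37, s.e. 0.55, adjusted p = 0.798) did not pass. Without SE tumors 3 and 4, the higher pair, the latter was 1.72 (adjusted p = 0.00321) and the former -0.77, the opposite direction. Leaving out the higher pair lowers the SE mean by construction.

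**Figure D1:**
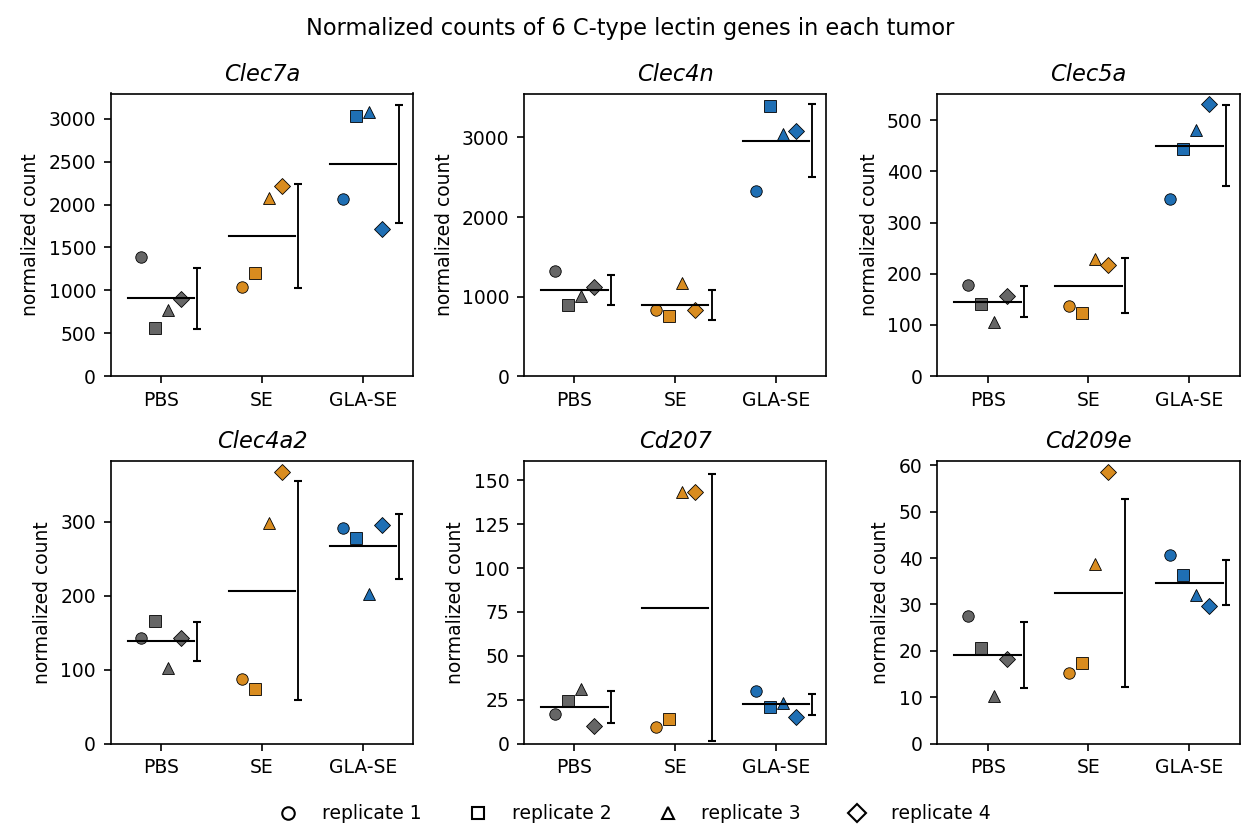
Normalized counts (linear axis) of the 6 genes in PBS, SE and GLA-SE tumors, 1 panel a gene. Each symbol is a tumor, its shape the replicate number, with the mean as a horizontal line and the SD as an error bar (n = 4). Clec4n and Clec5a are higher in every GLA-SE tumor than in any other tumor, while Cd207 stands at 143 in SE tumors 3 and 4 and at 31.4 or less elsewhere.

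Cd209e and Cd207 had low counts. Cd209e was 27.5, 20.6, 10.2 and 18.3 in PBS tumors, 15.3, 17.4, 38.6 and 58.5 in SE tumors and 40.6, 36.4, 32.0 and 29.7 in GLA-SE tumors. The GLA-SE tumors lay closely together, just above the PBS tumors. The log2 fold change of Cd209e against PBS was 0.87 (s.e. 0.29, adjusted p = 0.0251), and it no longer passed without PBS tumor 4 (adjusted p = 0.0565), GLA-SE tumor 1 (0.0592) or GLA-SE tumor 2 (0.0518). As deposited, the 12 tumors gave 14 to 42 counts for this gene, and a count of 14 has an exact Poisson interval of 7.65 to 23.5 (95%, counting error only). SE against PBS (0.73, s.e. 0.51, adjusted p = 0.353) and GLA-SE against SE (0.13, s.e. 0.46, adjusted p = 0.932) did not pass. Without SE tumors 3 and 4 these values of Cd209e were -0.21 (adjusted p = 0.782) and 1.09 (adjusted p = 0.0112).

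Cd207 behaved unlike the other members. It was 17.1, 24.3, 31.4 and 10.3 in PBS tumors and 30.0, 20.8, 23.2 and 15.3 in GLA-SE tumors, which overlapped (log2 fold change 0.10, s.e. 0.35, adjusted p = 0.804). In SE tumors it was 9.33, 14.3, 143 and 143. SE tumors 3 and 4 stood far above the other 10 tumors, with 115 deposited counts (exact Poisson interval 94.9 to 138) and 71 (55.5 to 89.6) against 13 to 43. SE against PBS gave a log2 fold change of 1.88 with a standard error of 0.92 (adjusted p = 0.256), and without SE tumors 3 and 4 it was -0.85. GLA-SE against SE gave -1.77 (s.e. 0.89, adjusted p = 0.335), and without those tumors 0.94 (adjusted p = 0.0584).

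Langerhans cells share the adhesion molecules Epcam and Cdh1 with epithelium, and both were high in the same 2 SE tumors. Cdh1, E-cadherin, was 705 and 1392 in SE tumors 3 and 4 and 10.3 to 131 in the other 10 tumors, and Epcam was 1133 and 4339 against 113 to 325. The panel genes whose pattern over the 12 tumors was nearest to that of Cd207 were Itgb4, Erbb2 and Chit1. Itgb4 is the integrin beta 4 gene of epithelial basement membrane contacts, Erbb2 a receptor tyrosine kinase gene of epithelia and Chit1 a chitinase gene. The measure was the root mean square difference of centred log2 values, which was 0.43, 0.47 and 0.51 for these genes against a median of 1.13 over 673 candidates. Itgb4 was 209 and 313 in SE tumors 3 and 4 and at most 79.1 elsewhere, and Erbb2 was 321 and 520 against at most 70.1. Chit1 was 203 and 86.7 in these tumors, against at most 40.9. Whether skin, Langerhans cells or dendritic cells in the samples had a part in the Cd207 counts was not tested.

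SE alone moved no member past the threshold. For SE against PBS 0 of the 6 genes were called, with 0% of the panel called by edgeR. Before adjustment, p was under 0.05 for 134 of the 750 genes and for 1 member, Clec7a. DESeq2 called 12 genes with its own size factors and 53 with those of the reference genes, and none of the 6 in either case. limma called 0 genes. The median log2 fold change was 0.65 over the members and 0.51 over the panel. All 6 members overlapped between SE and PBS tumors, while 8% of the panel was higher and 1.2% lower in every SE tumor than in every PBS tumor.

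**Figure D2:**
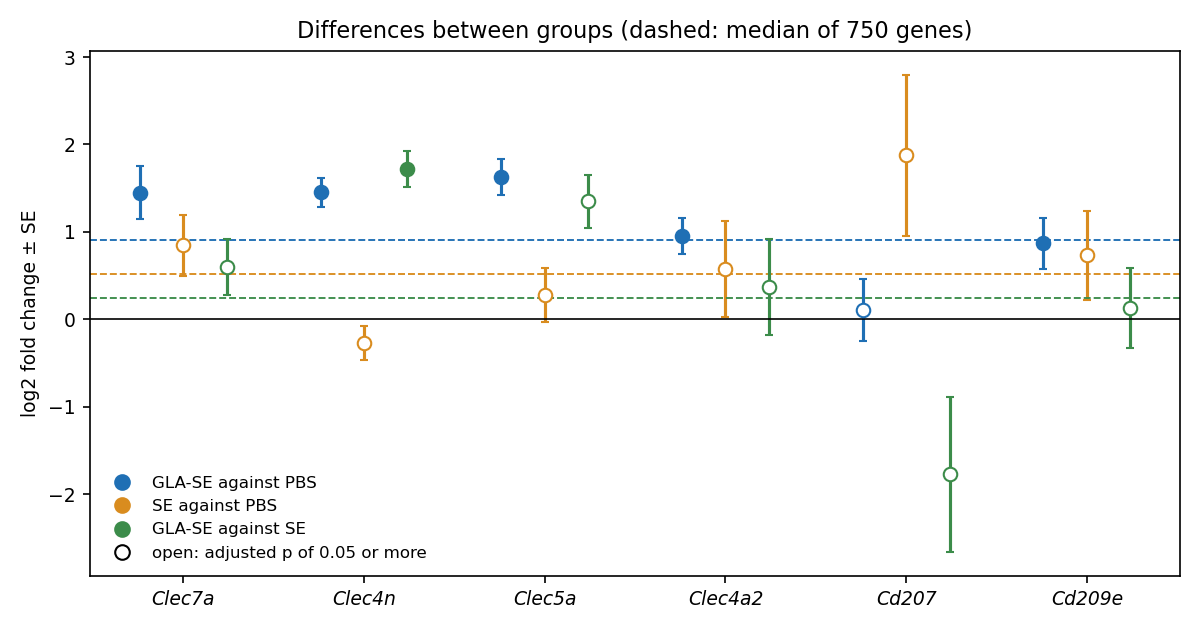
Log2 fold changes of the 6 genes with their standard errors (n = 4 tumors a group) for GLA-SE against PBS, SE against PBS and GLA-SE against SE. Filled points have an adjusted p under 0.05 (edgeR) and dashed lines mark the median of the 750 tested genes, 0.90, 0.51 and 0.25. The error bars of SE against PBS are widest for Cd207 (0.92) and Clec4a2 (0.55).

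The direction of some changes depended on what the counts were scaled to. Scaled to the panel's own median, the median log2 fold change of GLA-SE against PBS moved from 0.90 to -0.40 and the calls split into 61 higher and 307 lower. With TMM they were 148 higher and 168 lower, and with DESeq2's own size factors 193 higher and 153 lower. For GLA-SE against SE, DESeq2's own size factors gave 54 higher and 26 lower. Clec7a, Clec4n and Clec5a stayed above PBS in GLA-SE tumors in all 12 alternatives, with a lowest log2 fold change of 0.18, 0.18 and 0.36. None of these genes passed with the panel median, where the only member called was Cd207, which was lower (-1.21). Clec4a2 was below PBS with the panel median (-0.31) and Cd209e with the panel median (-0.38) and TMM (-0.0095).

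A ratio of 2 counts within a tumor is free of scaling. The ratio of Clec4n to Clec7a, chosen after the values were seen and therefore not tested, was 0.950, 1.58, 1.30 and 1.24 in PBS tumors and 1.12, 1.12, 0.990 and 1.80 in GLA-SE tumors. It was 0.803, 0.632, 0.565 and 0.375 in SE tumors, below every tumor of both other groups. This held for SE tumors 1 and 2 as well as for 3 and 4. The means were 1.27 ± 0.26 in PBS, 1.26 ± 0.36 in GLA-SE and 0.594 ± 0.177 in SE tumors (SD, n = 4 each). Because each gene has its own probe, the ratio shows how the balance of both genes differed between tumors and not which had more RNA. The ratio of Clec5a to Clec4a2, an activating to an inhibitory receptor gene, was 0.853 to 1.24 in PBS, 1.19 to 2.38 in GLA-SE and 0.593 to 1.66 in SE tumors, and these ranges overlapped.

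**Figure D3:**
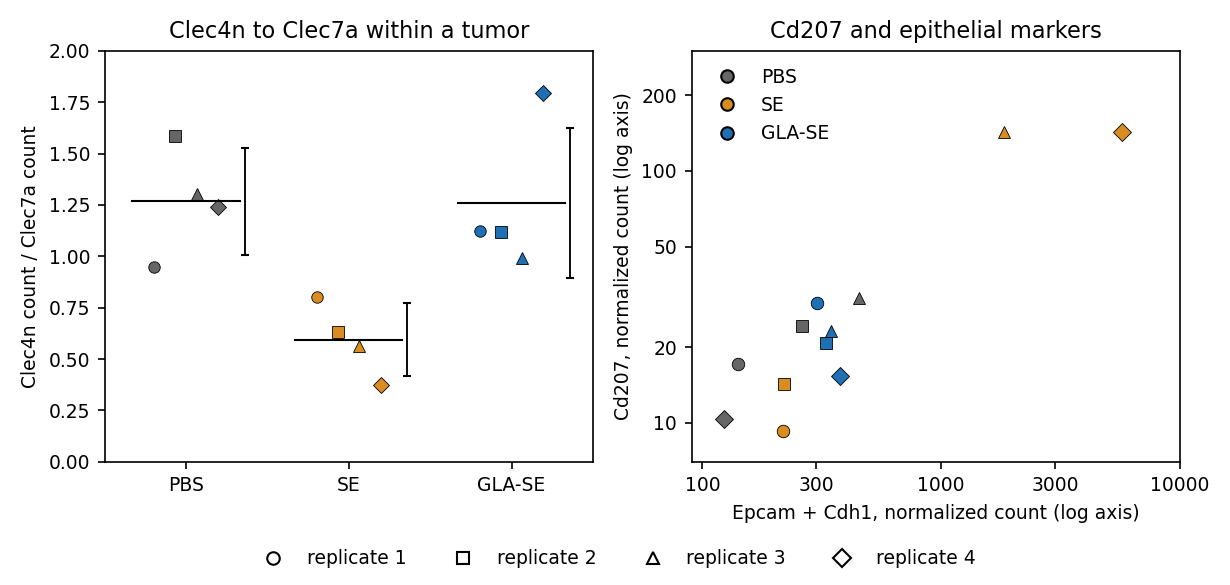
Left, ratio of the Clec4n to the Clec7a count within each tumor (linear axis), with the mean as a line and the SD as an error bar (n = 4). Right, normalized count of Cd207 against that of Epcam plus Cdh1 in the 12 tumors, both on log axes. The 4 SE tumors lie at 0.375 to 0.803 on the left, below all others, and SE tumors 3 and 4 stand apart on the right.

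Counts of the members were also set against the 9 monocyte and macrophage markers, of which 8 rose in GLA-SE against PBS tumors (median log2 fold change 1.62). The markers were Csf1r, Cd68, Emr1, Itgam, Cd14, Lyz2, Fcgr1, Cx3cr1 and Msr1. Their own changes were unequal, from 0.38 for Cx3cr1, which did not pass, to 2.62 for Fcgr1 and 3.71 for Cd14. A difference on this scale is therefore relative to these marker counts and is not a value per cell. On this scale 2 of the 6 genes were lower in GLA-SE than in PBS tumors and none was higher, beside 62.5% of 741 genes called, 440 lower (59.4%) and 23 higher (3.1%). Clec7a (-0.24, s.e. 0.24, adjusted p = 0.392), Clec4n (-0.24, s.e. 0.18, adjusted p = 0.261) and Clec5a (-0.05, s.e. 0.21, adjusted p = 0.835) did not pass. Their log2 differences were nearer to 0 than the panel median of -0.82. Against 4 of the markers alone (Csf1r, Cd68, Emr1 and Itgam, which rose by 1.37 to 1.64) they were -0.11, -0.09 and 0.11. None of these passed. Scaled to the reference genes, 4 of 9 neutrophil markers were higher in GLA-SE against PBS tumors, with a median log2 fold change of 0.61. That is below the panel, of which 68.4% was higher, with a median of 0.90. The neutrophil markers summed to 294 to 354 in PBS, 292 to 4702 in SE and 1262 to 11474 in GLA-SE tumors. Of these, S100a8 alone reached 7805 in GLA-SE tumors. The 5 dendritic cell markers summed to 789 to 1100, 990 to 1674 and 1490 to 5345. Of them 2 were higher in GLA-SE against PBS tumors (median 0.52), also a smaller share than in the panel. The part of either cell type in the members' counts was not tested.

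Clec5a was 36.8, 34.1, 29.6 and 31.0% of the geometric mean of the marker counts in PBS tumors and 29.7, 33.9, 24.2 and 38.8% in GLA-SE tumors. The GLA-SE range spanned the PBS range. In SE tumors it was 38.4, 40.8, 19.2 and 11.7%. Clec4n was 275, 216, 279 and 221% in PBS, 200, 260, 154 and 225% in GLA-SE, and 232, 250, 98.7 and 44.8% in SE tumors. For both genes SE tumors 3 and 4 lay below all other tumors of the series, at marker levels within the GLA-SE range (geometric means of 1190 and 1860, against 1163 to 1985). Clec7a was 289, 395, 175 and 119% in SE tumors, and its tumors 3 and 4 lay within or just below the GLA-SE range of 125 to 232%. GLA-SE against SE did not pass for Clec7a on this scale (-0.50, adjusted p = 0.422), but it did without SE tumors 3 and 4 (-0.98, adjusted p = 0.0109). The share of the panel called in that run was not counted. Neither SE comparison passed the test for Clec4n on this scale (-0.67 for SE against PBS, adjusted p = 0.994, and 0.43 for GLA-SE against SE, adjusted p = 0.566). Without SE tumors 3 and 4 these differences were -0.04 (adjusted p = 0.903) and -0.20 (adjusted p = 0.481), the second in the opposite direction.

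Clec4a2 was 29.7, 40.0, 28.4 and 28.3% of the marker mean in PBS tumors and 25, 21.3, 10.2 and 21.7% in GLA-SE tumors, which did not overlap, with GLA-SE lower, as for 52.1% of the panel. The log2 difference was -0.69 (s.e. 0.28, adjusted p = 0.0471), nearer to 0 than the panel median of -0.82. Among the alternative methods it did not pass with 4 markers alone (-0.54, adjusted p = 0.0944) or with all 12 tumors in one fit (adjusted p = 0.0794). It passed with the others. When tumors were left out singly, it passed only without GLA-SE tumor 1 (adjusted p = 0.0308). The adjusted p was 0.0664 to 0.125 without any 1 of the 4 PBS tumors and 0.0582 to 0.0634 without GLA-SE tumor 2, 3 or 4. In SE tumors Clec4a2 was 24.3, 24.6, 25.1 and 19.7%, a narrow range although its normalized count ran from 74.6 to 367. This lay below all PBS tumors (exact two-sided permutation p = 0.0286), as did 1.62% of the panel, but the fit over all genes did not call it (-0.43, s.e. 0.28, adjusted p = 0.956, and -0.37, adjusted p = 0.319, without SE tumors 3 and 4). Both comparisons share the PBS tumors.

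Relative to the markers Cd207 was 2.58, 1.59, 1.17 and 1.12% in GLA-SE tumors and 3.54, 5.87, 8.73 and 2.05% in PBS tumors. Its normalized count hardly differed between these groups (log2 fold change 0.10), while the markers had a median log2 fold change of 1.62. Deposited counts of Cd207 were low, 13 to 43 in PBS and 15 to 31 in GLA-SE tumors. The log2 difference relative to the markers was -1.63 (s.e. 0.43, adjusted p = 0.00613), against a panel median of -0.82. On this scale 1 PBS tumor lay inside the GLA-SE range. The difference passed in every alternative run (largest adjusted p = 0.0330, without PBS tumor 3). In SE tumors it was 2.60, 4.72, 12 and 7.70%, all above the GLA-SE tumors, an order that 10.8% of the panel shared. GLA-SE against SE did not pass (-2.09, s.e. 0.50, adjusted p = 0.0674). In that comparison 1.48% of the panel was called, 11 genes and all lower. The Cd207 value passed without SE tumor 1 (adjusted p = 0.0236) or SE tumor 4 (adjusted p = 0.0182), while the adjusted p was 0.0617 to 0.227 without any of the other 6 tumors. Without SE tumors 3 and 4 the difference was -1.14 (adjusted p = 0.0587). Cd209e was 5.70, 4.97, 2.84 and 3.62% in PBS and 3.49, 2.79, 1.61 and 2.17% in GLA-SE tumors, and just missed the threshold (-0.77, s.e. 0.32, adjusted p = 0.0506). It passed without PBS tumor 3 (adjusted p = 0.0358) or GLA-SE tumor 1 (adjusted p = 0.0241), and with replicate number as a block (adjusted p = 0.0261).

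**Figure D4:**
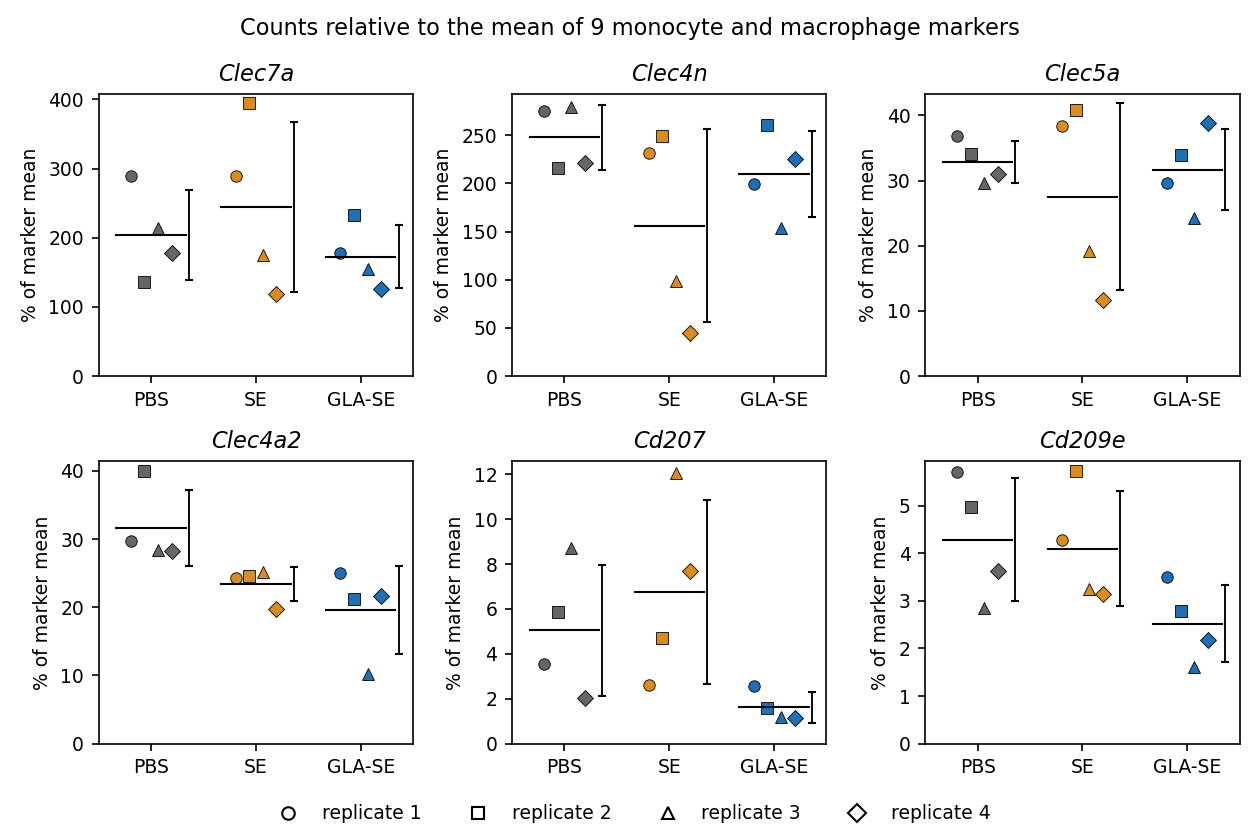
Counts of the 6 genes as a percent of the geometric mean of 9 monocyte and macrophage markers in the same tumor (linear axes), 1 panel a gene, with the mean as a line and the SD as an error bar (n = 4). Clec4n and Clec5a are lowest in SE tumors 3 and 4 (98.7 and 44.8% for Clec4n), and Clec4a2 is lower in every GLA-SE and SE tumor than in any PBS tumor.

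By their pattern over the 12 tumors, Clec4n and Clec5a were the most alike of the 15 pairs of members (root mean square log2 difference 0.31), followed by Clec4a2 and Cd209e (0.34), and Clec4n and Cd207 were the least alike (1.51). Among the panel genes nearest to Clec4n were Pdcd1lg2 (0.23), the gene of the checkpoint ligand PD-L2, and Gbp2b (0.25), a guanylate binding protein gene. Nearest to Clec5a were Zbp1 (0.19), a nucleic acid sensor gene, Klrk1 (0.20), which encodes NKG2D and has a C-type lectin domain, and the class I gene H2-Q10 (0.24). Clec7a was nearest to Cd86 (0.26), a costimulatory gene, and to the class I genes H2-T23 and H2-D1 (both 0.28). Clec4a2 was nearest to Vim (0.22), the vimentin gene, and Cd209e to Tnfrsf11b (0.25), the gene of the decoy receptor osteoprotegerin. The candidate medians for these genes were 0.59 to 0.77.

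Panel genes that act beside these receptors have to be read against a panel of which 68.4% was higher in GLA-SE than in PBS tumors, at a median log2 fold change of 0.90. Of 9 genes of receptor-proximal signalling, 7 rose and none fell, with a median of 0.86, near that of the panel. Fcer1g, the FcRgamma adaptor gene of Dectin-2, went from 559 ± 71.7 to 1876 ± 400 (SD, n = 4 each), a log2 fold change of 1.75 (s.e. 0.17, adjusted p = 0.000188). The kinase gene Syk rose by 0.98 (s.e. 0.17, adjusted p = 0.00146) and Inpp5d, the gene of the phosphatase SHIP1, by 0.53 (s.e. 0.12, adjusted p = 0.00472). Card9, the adaptor gene below Syk, rose by 0.88 (s.e. 0.23, adjusted p = 0.00894) at mean counts of only 13.4 and 24.8. The smallest change among genes of this list with a mean count of at least 20 was in Bcl10 (0.24, adjusted p = 0.115).

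Of the 9 genes of the NF-kB arm 6 rose, a share near that of the panel, and their median of 0.45 lay below the panel's 0.90. Only 3 of them passed without PBS tumor 2 or PBS tumor 4 and 2 without PBS tumor 3. Relb had the largest change (0.81, adjusted p = 0.00675) and Nfkb2 the smallest, which did not pass (0.11, adjusted p = 0.472). Of the 9 genes of the NFAT and inflammasome arm 7 rose, also with a median of 0.45. Among those with a mean count of at least 20, Nlrp3, the inflammasome sensor gene, had the largest change (3.48, adjusted p = 0.00519) and Nfatc3 the smallest (0.25, adjusted p = 0.0592).

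Of 11 cytokine genes 8 rose, with a median of 2.25. Without GLA-SE tumor 3, whose neutrophil markers were high, 6 rose with a median of 1.06, and 5 rose without PBS tumor 3 or PBS tumor 4. Il1b, the interleukin-1 beta gene, ranged from 418 to 11840 in GLA-SE tumors and from 69.1 to 138 in PBS tumors. Its log2 fold change was 5.20 (adjusted p = 0.00254), and 3.64 without GLA-SE tumor 3 (adjusted p = 0.000554). Nlrp3 gave 2.14 without that tumor (adjusted p = 0.000741). The smallest change among cytokine genes with a mean count of at least 20 was that of the growth factor gene Csf2 (0.84, adjusted p = 0.102). All 9 genes of a list of other C-type lectin domain genes rose, with a median of 1.60, or 1.18 without GLA-SE tumor 3. At a mean count of at least 20 their changes ran from 1.15 for Fcer2a, the low-affinity IgE receptor gene (adjusted p = 0.0123), to 2.28 for the endothelial selectin gene Sele (adjusted p = 0.00153). This list was not complete, as it left out Klrk1 and other NK cell receptor genes. Of those, Klrd1 rose (1.32, adjusted p = 0.00961) and Klrb1c did not pass (-0.26, adjusted p = 0.554). No gene fell in these lists, and none of their genes was called in SE against PBS or in GLA-SE against SE. These lists hold targets of many receptors, Toll-like receptor 4 included.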

How the data were processed

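RNA of 12 tumors was measured on the nCounter mouse PanCancer Immune panel, and groups and replicate numbers came from the sample titles. The authors deposited 1 table of counts, whole numbers of barcoded probes per gene and tumor. The methods describe normalization in nSolver, but totals and reference genes of the table differ between tumors, so the counts were treated as raw. The members and gene lists were chosen with earlier results of these data known. Nothing says how the tumors were spread over hybridization runs.

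Tumors were scaled to the geometric mean of the 16 of 20 reference genes that geNorm kept over all 12 tumors. The other 750 genes were tested per comparison, without a filter, by the quasi-likelihood test of edgeR 4.0.16 in R 4.3.3, with Benjamini-Hochberg adjustment over all of them and a threshold of 0.05. A second fit over 741 genes took size factors from 9 monocyte and macrophage markers. Exact two-sided permutation tests used the 70 assignments of 4 tumors against 4 (scipy 1.17.1). Alternatives were other reference sets, panel median, TMM or no scaling, a filter (at least 20 counts in at least 4 tumors), all 12 tumors in one fit, a replicate block, limma 3.58.1 on log2 of the normalized count plus 1 or 10, DESeq2 1.42.0, 4 markers alone and each tumor left out. Leaving out SE tumors 3 and 4 was added after seeing the data. The edgeR steps were tested on simulated data. Named genes were all 6 members, Fcer1g, Syk, Card9 and Inpp5d, and per list the largest and smallest GLA-SE against PBS change at a mean count of at least 20. The 3 nearest genes per member were taken by pattern (log2 of the normalized count plus 1), with at least 1 named. Some genes that these rules select are not reported here. Probe efficiencies differ, so levels are not compared between genes. Totals of 810260 to 1612415 counts and 4 tumors a group limit the precision.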

Additional observations from a re-analysis of the deposited data

Results flagged for a closer look

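Each of the 6 genes was examined for a tumor far from the other 3 of its group, on normalized counts and as a percent of the monocyte and macrophage marker mean, in 36 sets of 4 tumors. A set stood out where the gap to the nearest tumor was a larger part of the group's range than Dixon's 95% critical value allows. That was so in 2 sets, and chance gives about 5% of sets, or 1.8.

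Both concern Clec4a2 as a percent of the marker mean. PBS tumor 2 was at 40.0%, while the other PBS tumors were at 28.3 to 29.7%. SE tumor 4 was at 19.7%, while the other SE tumors were at 24.3 to 25.1%. SE tumor 4 also had the lowest level of reference genes (927) of the 12 tumors.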

How the results depend on the processing

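GLA-SE against PBS gave 5 called members and 516 panel genes. Members called were 1 with the panel median (Cd207, lower), 2 with TMM, 3 with all 12 tumors in one fit and 3 with DESeq2's own size factors, and 4 to 5 with tumors left out singly. Panel calls were 316 with TMM, 255 with all 12 tumors and 443 to 504 with tumors left out. Directions turned with the panel median for Clec4a2 (-0.31), Cd207 (-1.21) and Cd209e (-0.38), with TMM for Cd207 (-0.82) and Cd209e (-0.0095), and for Cd207 without scaling (-0.20), with DESeq2's own size factors (-0.76), without PBS tumor 4 (-0.13) and without GLA-SE tumor 1 (-0.078), within -0.13 to 0.38 over the tumors left out singly. Relative to the markers, 2 members were called, and 1 with all 12 tumors, 1 with 4 markers alone and 1 to 3 with tumors left out.

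For SE against PBS, panel calls were 0, and 12 with DESeq2's own size factors, 53 with its reference gene factors and 6 without SE tumors 3 and 4. Members called stayed at 0 in all alternatives. Clec5a and Clec4a2 turned with the panel median (-0.20 and -0.24), TMM (-0.19 and -0.13), no scaling (-0.14 and -0.050) and DESeq2's own size factors (-0.14 and -0.074). Without SE tumors 3 and 4, Clec5a (-0.15), Clec4a2 (-0.77), Cd207 (-0.85) and Cd209e (-0.21) turned.

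For GLA-SE against SE, 16 panel genes and 1 member were called. Panel calls and members were 0 and 0 with the panel median, 3 and 0 with TMM, 89 and 2 without scaling, 79 and 2 with all 12 tumors, 80 and 3 with DESeq2's own size factors, 118 and 2 with its reference gene factors, 424 and 5 without SE tumors 3 and 4, and 4 to 105 and 1 to 2 with tumors left out. With all reference genes 2 members were called. Clec7a (-0.18), Clec4a2 (-0.068) and Cd209e (-0.44) turned with the panel median, Cd209e with TMM (-0.12), DESeq2's own size factors (-0.18), without SE tumor 1 (-0.12) and without SE tumor 2 (-0.081, within -0.12 to 0.56 over the tumors left out), and Cd207 without SE tumors 3 and 4 (0.94). Relative to the markers, 0 members were called, and 1 with all 12 tumors (Cd207), 1 with DESeq2 (Cd207), 1 without SE tumors 3 and 4 (Clec7a) and 0 to 1 with tumors left out. The causes were not tested.

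Replicate numbers do not pair these tumors of separate mice. Deviations of same-numbered tumors correlated over genes at -0.25 to 0.18. With replicate number as a block, GLA-SE against SE gave 0 panel genes and 0 members, and members called against PBS were 5 for GLA-SE and 0 for SE. Relative to the markers, 3 members were called for GLA-SE against PBS with the block, Cd209e being the added one.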
